A study of Schizosaccharomyces pombe with 6 samples.

Results

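The RNAs described here were recovered with probes against the long non-coding RNA *aal1* from fission yeast cells that lack *aal1*. The members are every gene with counts in the 2 *aal1∆* pull-down libraries of a series of 6, read as CPM, each count scaled to the total of its library, with no contrast between strains. Of 5112 annotated nuclear mRNAs in the table of 7001 identifiers, 4234 had at least 1 count in an *aal1∆* library. The *aal1∆* cells carried a CRISPR-Cas9 deletion of *aal1* in the 972h- background. The other 4 libraries came from 972h- wild type (2) and from *aal1-pOE* (2), in which a plasmid carries *aal1* behind P41nmt1, a promoter that thiamine represses, in a 972h-/leu1-32 strain. Cells of all strains were grown in minimal medium with glutamate to Day 6 of stationary phase, fixed with formaldehyde, lysed and sonicated. Each lysate was cleared with streptavidin beads, hybridised with the same pool of biotinylated antisense DNA probes and captured on streptavidin beads, and the RNA left on the beads was sequenced. Independent deletion strains made with distinct guides exist, and the labels do not say which was used. The replicates were grown and processed independently.

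This pull-down method, ChIRP, recovers an RNA through short antisense probes, together with what is crosslinked to it. RNAs can also reach the beads without the target, by sticking to beads or tubes, by partial pairing with the probes, or as part of large ribonucleoprotein complexes. Fission yeast in stationary phase has stopped dividing after its carbon source runs out, and such cells are known for stress-protein expression, reserve carbohydrates and lowered translation. No library made without probes and no unselected RNA of these cells was analysed here, so a high value may be high abundance in the cell or good recovery, and these cannot be told apart. In bulk RNA of a culture, more cells with an RNA and more of that RNA per cell cannot be told apart either.

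*aal1* itself (SPNCRNA.1530, chrII:2580400-2581182 in ASM294v3) had 0 counts in both *aal1∆* libraries. Its antisense neighbour SPNCRNA.401 also had 0 counts in both. The floor of 3 counts is 0.00171% of the counts of replicate 1 and 0.00738% of those of replicate 2. In the wild-type libraries *aal1* had 28 and 147 counts, and in the *aal1-pOE* libraries 9540 and 20832. The libraries are therefore without detectable target at their depth. Total counts were 175263 in *aal1∆* replicate 1 and 40653 in replicate 2, a ratio of 4.31, so that 1 count is worth 5.71 CPM in replicate 1 and 24.6 CPM in replicate 2. Replicate 2 was the shallowest of the 6 libraries and its mRNA ranks stood furthest from those of the others, so values are given for each library. All intervals below are exact 95% intervals for counting error within a library only. PCR duplicates were not described as collapsed, so the intervals may be too narrow even for that error.

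The longest stretches of mRNA that match *aal1* exactly were short in the most counted mRNAs. Below are the longest exact matches to the *aal1* sense strand in the 5 mRNAs with the highest mean CPM, followed by that of *git1*, which holds a long match for a nuclear mRNA. Capitals mark the shared stretch, which is the part an antisense probe at that place in *aal1* would pair with, and lower case marks 4 nt of mRNA on each side. Sequences are RefSeq ASM294v3 on the mRNA strand.
pdc201: atgaTTTATTTTTTTTttct
lsd90: tggcTTGATGAACAATgttc
gld1: ccttTTTTTTATTTTTTTaaaa
tef3: aaacTTTGAAGGCTgttc
nmt1: gacaTTAAAGGAAAgcgt
git1: attaATTTTATTTTTTATTTTTTaacc
The *pdc201* stretch of 12 nt lies in the 3′ UTR at chrI:3162151-3162162 on the plus strand. The 12 nt of *lsd90* are coding sequence at chrII:1948018-1948029 on the minus strand, and the 14 nt of *gld1* are 3′ UTR at chrI:2174813-2174826 on the minus strand. The 10 nt of *tef3* (chrIII:1686709-1686718, plus strand) and of *nmt1* (chrIII:1838798-1838807, plus strand) are coding. *git1* shares 19 nt in its 5′ UTR at chrII:3834739-3834757 on the minus strand. This long match, and those of *pdc201* and *gld1*, fall in the same T-rich part of *aal1*, from 2581033 to 2581053. The study dropped probes with over 13 nt of homology to another region, so a kept probe should not hold all of the *git1* or *gld1* stretch. The places of the kept probes along *aal1* were not used here, so it was not tested whether a probe covers a piece of this part.

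Nuclear mRNA was the largest class by counts assigned to genes, followed by rRNA. The rRNA genes are present in several copies, and how reads that match more than a single copy were handled was not tested. The order of these classes in the recovered RNA itself is therefore not known. In replicate 1 nuclear mRNAs held 53.6% of counts (53.4 to 53.8%) and in replicate 2 55.9% (55.4 to 56.4%), a mean of 54.8% ± 1.64 (SD, n = 2). Nuclear rRNA held 44.4% and 41.2%. The other 4 libraries of the series spanned 42.4 to 65.6% for mRNA and 25.7 to 54.4% for rRNA, and both *aal1∆* libraries lay inside these ranges. Their totals include *aal1*, with 9540 and 20832 counts in the *aal1-pOE* libraries, where it lowers every other share of all counts and every other CPM. Long non-coding RNAs held 1.24 to 27.4% in these 4 libraries. CPM ranges of these libraries given below are not corrected for this. Mitochondrially encoded RNAs held 1.01% and 1.61%, long non-coding RNAs 0.833% and 1.16%, and snoRNAs and snRNAs 0.118% and 0.130%. No count fell on any of 171 nuclear tRNA genes in either library. Whether the libraries and the counting could hold tRNA was not tested, so this is not absence of tRNA.

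**Figure D1:**
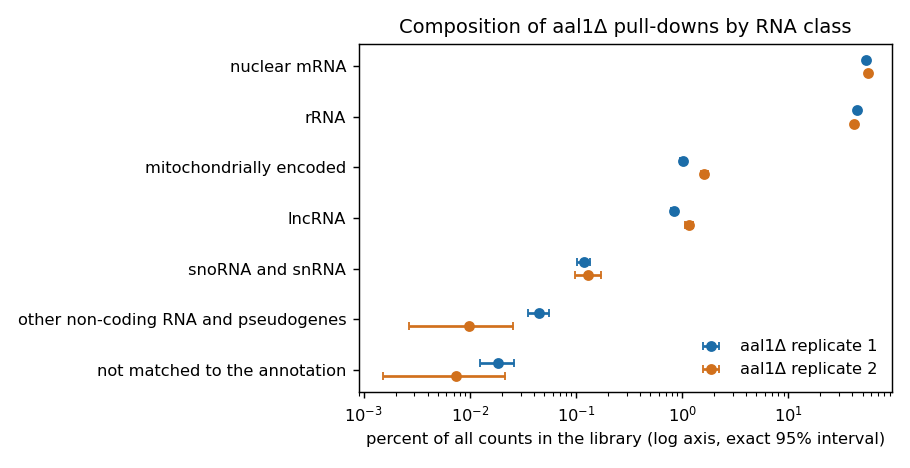
Percent of all counts (log axis) held by each RNA class in *aal1∆* replicate 1 (blue) and replicate 2 (orange), with exact 95% intervals. Nuclear mRNA (53.6% and 55.9%) and rRNA (44.4% and 41.2%) stand far to the right of every other class, and the classes keep the same order in both libraries.

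The non-mRNA classes rested on a few genes each, and these did not all hold steady between the libraries. The long non-coding class was led by *prl53*, a polyadenylated RNA, with 429 and 103 counts (2448 and 2534 CPM). *srp7*, the 7SL RNA of the signal recognition particle, had 126 and 94 counts, 719 CPM in replicate 1 against 2312 CPM in replicate 2. *rrk1*, the RNA of RNase P, had 52 and 18 counts. The U2 snRNA *snu2* had 88 and 20 counts, which is 502 and 492 CPM. SPMIT.01 led the mitochondrially encoded RNAs with 994 and 347 counts. Among the rRNA genes, the 18S copy SPRRNA.46 had 18.2% of counts in replicate 1 and 1.90% in replicate 2, while the 28S copy SPRRNA.48 had 6.11% and 15.9%. Summed over annotated copies, 18S rRNA held 21.3% in replicate 1 and 4.95% in replicate 2, and 28S rRNA 17.6% and 26.2%. Without SPRRNA.46 the 18S share was 3.15% and 3.05%, so the difference in 18S rests on that gene. A further 5.42% and 9.96% fell on 2 rRNA identifiers without a match in the annotation. How reads were split among copies was not tested.

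The same 2 mRNAs led the recovered mRNAs in both libraries. *pdc201* (SPAC3G9.11c), a pyruvate decarboxylase, which takes pyruvate to acetaldehyde in ethanol fermentation, was first with 3958 counts in replicate 1 and 787 in replicate 2. These are 22583 CPM (21885 to 23298) and 19359 CPM (18030 to 20760), a mean of 20971 ± 2280 (SD, n = 2), and it alone held 4.21% and 3.46% of the nuclear mRNA counts. It was first in each of the other 4 libraries too, at 14873 to 24483 CPM. *lsd90* (SPBC16E9.16c) was second in all 6 libraries, with 1775 and 359 counts here and a mean of 9479 ± 917 CPM. *gld1*, the glycerol dehydrogenase, had 1078 and 229 counts, or 5892 ± 366 CPM. *tef3*, the translation elongation factor eEF3, had 896 and 221 counts, or 5274 ± 229 CPM. *nmt1*, an enzyme that makes the pyrimidine part of thiamine and whose promoter drives the overexpression plasmid of the *aal1-pOE* strain, had 846 and 184 counts at its own locus in the plasmid-free *aal1∆* cells, or 4677 ± 213 CPM. Next to *pdc201* and *lsd90*, the highest places were thus occupied by mRNAs of glycerol use, translation and vitamin synthesis, each with intervals that overlapped between the libraries.

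The next mRNAs lay closer together. *cpy1*, the vacuolar carboxypeptidase Y, had 789 and 185 counts (4526 ± 34.6 CPM). The glyceraldehyde-3-phosphate dehydrogenases *tdh1* and *gpd3* had 662 and 162, and 545 and 182 counts (3881 ± 147 and 3793 ± 967 CPM). *ght5*, the high-affinity glucose transporter, had 558 and 140 counts (3314 ± 184 CPM). These were followed by *ole1*, an acyl-CoA desaturase (3269 ± 629 CPM), *plb1*, a lysophospholipase (3257 ± 612 CPM), *ssa2*, an Hsp70 chaperone (3196 ± 106 CPM), and *atd1*, an aldehyde dehydrogenase (2999 ± 699 CPM). The plasma membrane proton pump *pma1* (2995 ± 130 CPM), the pyrimidine synthesis enzyme *ura1* (2920 ± 616 CPM), the acetate transporter *mug86* (2872 ± 861 CPM) and the aconitase *aco1* (2861 ± 811 CPM) came next. The enolase *eno101* (2720 ± 676 CPM), the elongation factor *tef103* (2710 ± 411 CPM) and the phosphoglycerate kinase *pgk1* (2697 ± 91.6 CPM) closed the 20 highest. From *ght5* to *pgk1* most neighbours in this order do not differ beyond their spread between libraries. *tef103* is identical to *tef101* or *tef102* over 66.8% of its read-length stretches, and *ght5* shares 25.6% of its own with *ght1*, *ght6* and *ght8*, so counts of these genes are uncertain.

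**Figure D2:**
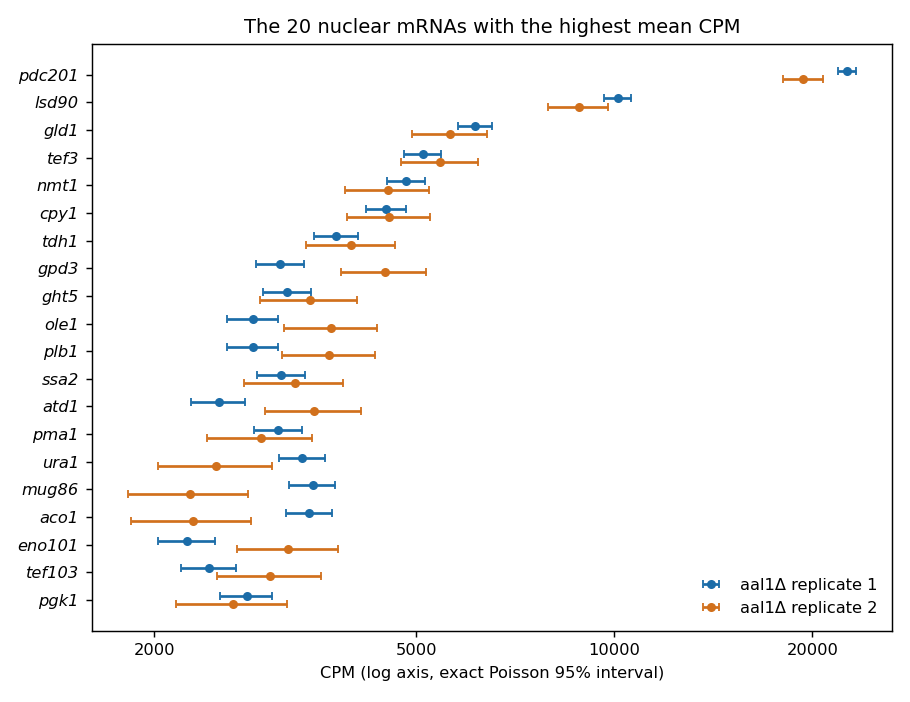
CPM (log axis) of the 20 nuclear mRNAs with the highest mean CPM in *aal1∆* replicate 1 (blue) and replicate 2 (orange), with exact Poisson 95% intervals. *pdc201* (22583 and 19359 CPM) and *lsd90* stand apart in both libraries, whereas the mRNAs below *nmt1* lie close together and change places between libraries.

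Long mRNAs give more fragments, so levels were also set per kb of exon. *pdc201* stayed first at 8612 ± 936 CPM per kb and *lsd90* second at 4169 ± 403 CPM per kb. *nmt1* (3741 CPM per kb), *gld1* (3050 CPM per kb), *gpd3* (2715 CPM per kb) and *tdh1* (2664 CPM per kb) followed. The seventh was *hsp9*, a small stress protein whose exons span 720 nt, with 202 and 67 counts (1945 ± 487 CPM per kb). *eno101* (1867 CPM per kb), the aldolase *fba1* (1840 CPM per kb) and *tef103* (1784 CPM per kb) completed the 10 highest. Of the 10 highest by CPM, 6 were among the 10 highest per kb, and of the 50 highest by CPM, 34 were among the 50 highest per kb. *ura1*, with 6948 nt of exon, and *pma1*, with 4470 nt, left the 50 highest on the scale per kb.

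The recovered mRNA was spread over many genes. The 10 most counted mRNAs held 12.6% of nuclear mRNA counts in replicate 1 (12.4 to 12.8%) and 11.5% in replicate 2 (11.1 to 11.9%). The 50 most counted held 28.2% and 27.2%, and the 100 most counted 38.3% and 37.8%. The smallest number of mRNAs that held 50% of counts was 198 in replicate 1 and 196 in replicate 2. These shares and numbers were close in libraries whose depths differed by 4.31 times. The number that held 90% of counts was not, with 1599 and 1186, nor was the number of mRNAs seen at all, with 4106 in replicate 1 and 2408 in replicate 2, of which 2280 were in both. Of the mRNAs with a count in replicate 2, 94.7% also had one in replicate 1, and in the other direction 55.5%. Drawing replicate 1 down to the mRNA depth of replicate 2 would leave 2978 detected mRNAs, more than the 2408 that replicate 2 held. At 0 in both libraries were 878 mRNAs (17.2%), which at this depth is not absence.

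Groups of genes with a shared role were summed as percent of nuclear mRNA counts. Only listed names that matched an annotated mRNA were summed, so some groups are incomplete. The matched names were 22 of 32 for initiation factors, 13 of 16 for glycolysis and 20 of 21 for chaperones. The 24 functional groups together hold 510 mRNAs, 9.98% of all, and these took 35.0% of the nuclear mRNA counts in replicate 1 and 35.2% in replicate 2. Pyruvate decarboxylases and alcohol dehydrogenases held 4.97% and 4.31%. Within this group *pdc201* took most, while *pdc101* had 225 and 95 counts, *adh1*, the fermentative alcohol dehydrogenase, 207 and 61, *pdc202* 255 and 20, and *pdc102* 0 and 0. Glycolytic enzymes held 4.32% and 4.93%, with counts for 13 of 13 genes and 9 of them among the 50 highest mRNAs. Within glycolysis mean levels ranged from 3881 CPM for *tdh1* to 133 CPM for the triosephosphate isomerase *tpi1*. The other 4 libraries spanned 3.97 to 4.37% for the first group and 4.44 to 5.64% for glycolysis. Replicate 1 lay above the first range and below the second, and replicate 2 inside both.

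Cytosolic ribosomal protein mRNAs, which encode the protein part of both ribosomal subunits, had counts for most of their genes, as did nuclear mRNAs at large. The 137 genes held 3.16% of nuclear mRNA counts in replicate 1 (3.05 to 3.27%) and 4.39% in replicate 2 (4.12 to 4.66%), against 3.64 to 4.90% in the other 4 libraries. These genes are 2.68% of all. At least 1 count in either library was held by 132 of the 137, beside 4234 of all 5112 mRNAs. At least 10 counts over both libraries were held by 104, beside 1917 of all. By CPM 0 were among the 50 highest mRNAs, but per kb of exon *rpp0* (rank 25), *rpl8* (rank 36) and *rps2502* (rank 45) were. The highest by CPM was *rpp0*, a protein of the ribosomal stalk, with 158 and 66 counts (1263 ± 511 CPM), followed by *rpl8* with 85 and 47 and *rpl301* with 74 and 45. *rpl301* shares 66.3% of its read-length stretches with a paralog. Because these mRNAs are short, their share was 3.77% of counts (mean of both libraries) and 10.1% of counts per kb of exon. Of the ribosomal protein mRNAs that the study names for ChIRP-seq, *rpl1901* had 6 and 1 counts (29.4 ± 6.81 CPM), *rps27* 9 and 1 (37.97 ± 18.9 CPM), *rps502* 23 and 2 (90.2 ± 58.0 CPM) and *rpl1802* 27 and 8 (175 ± 30.2 CPM). The paralog *rpl1902* had 31 and 10 counts (211 ± 48.9 CPM). The median over the 137 genes was 95.7 CPM, so that *rpl1802* and *rpl1902* lay above it and the other 3 below.

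Most stress and storage groups held more of the counts than of the genes, while oxidative-stress genes lay near their share of genes. Stress- and stationary-phase-induced genes, 0.450% of all genes, held 1.45% and 1.33%. Of these, 2 of 23 were at 0 in both libraries and 1 was among the 50 highest. Heat-shock proteins and chaperones, 0.391% of all genes, held 2.96% ± 0.0576 (SD, n = 2). All 20 of 20 genes had counts, and 6 were among the 50 highest. The mitochondrial Hsp70 *ssc1* had 353 and 84 counts, the cytosolic Hsp70 *ssa1* 396 and 72, and the ribosome-associated chaperone *sks2* 214 and 86. Genes of trehalose, reserve and glycerol metabolism, 0.196% of all genes, held 1.98% and 1.73%. Of their 1862 and 394 counts *gld1* alone had 1078 and 229, and *tps1*, the trehalose-6-phosphate synthase, had 71 and 16. Vacuolar proteases and autophagy genes, 0.313% of all genes, held 1.52% and 1.38%, led by *cpy1* and by the serine protease *isp6* with 383 and 86 counts. Thiamine-repressed genes, 0.137% of all genes, held 1.30% and 1.13%. They were carried mostly by *nmt1* and by *thi2*, a thiazole synthesis enzyme, with 228 and 33 counts. Oxidative-stress genes, 0.411% of all genes, were lower, at 0.432% and 0.519%, led by the catalase *ctt1* with 135 and 47 counts. Of these genes, 4 of 21 were at 0 in both libraries.

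Translation factors, respiration and the cell wall gave further groups. Elongation factors held 1.95% and 2.01% with 8 genes, and initiation factors 0.979% ± 0.0402 (SD, n = 2) with 22 genes, led by *tif471*, the scaffold eIF4G, with 270 and 48 counts. Enzymes of the tricarboxylic acid cycle held 1.88% and 1.42%, and the nuclear-encoded respiratory chain 0.555% and 0.440%. Hexose transporters held 0.930% and 1.04%, mostly from *ght5* and *ght8*, while *ght1* and *ght6* were at 0 in both libraries. Glucan synthesis and remodelling genes held 1.43% and 1.31%, led by the glucan synthase *bgs4* with 330 and 55 counts. Core histones, made mainly in dividing cells, held 0.295% and 0.524%, with *htb1* at 116 and 25 counts.

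Of the markers of sexual differentiation, meiosis-specific genes held less than their share of genes, and mating genes as a group lay near theirs. Meiosis-specific genes, 0.450% of all genes, held 0.0490% and 0.0836% of counts, and 13 of 23 were at 0 in both libraries. *mei4*, a meiotic transcription factor, had 4 and 11 counts. Genes of mating and pheromone response, 0.430% of all genes, held 0.498% and 0.317%, and 4 of 22 were at 0 in both libraries. Much of their 468 and 72 counts came from 2 genes. *ste11*, the transcription factor that starts sexual differentiation, had 176 and 24 counts, and *mei2*, an RNA-binding protein needed for meiosis, 99 and 12. The median of the group was 25.6 CPM, against 19.97 CPM over all nuclear mRNAs. The reference mRNAs *act1* (actin) and *ppb1* (calcineurin) had 94 and 13, and 9 and 10 counts.

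**Figure D3:**
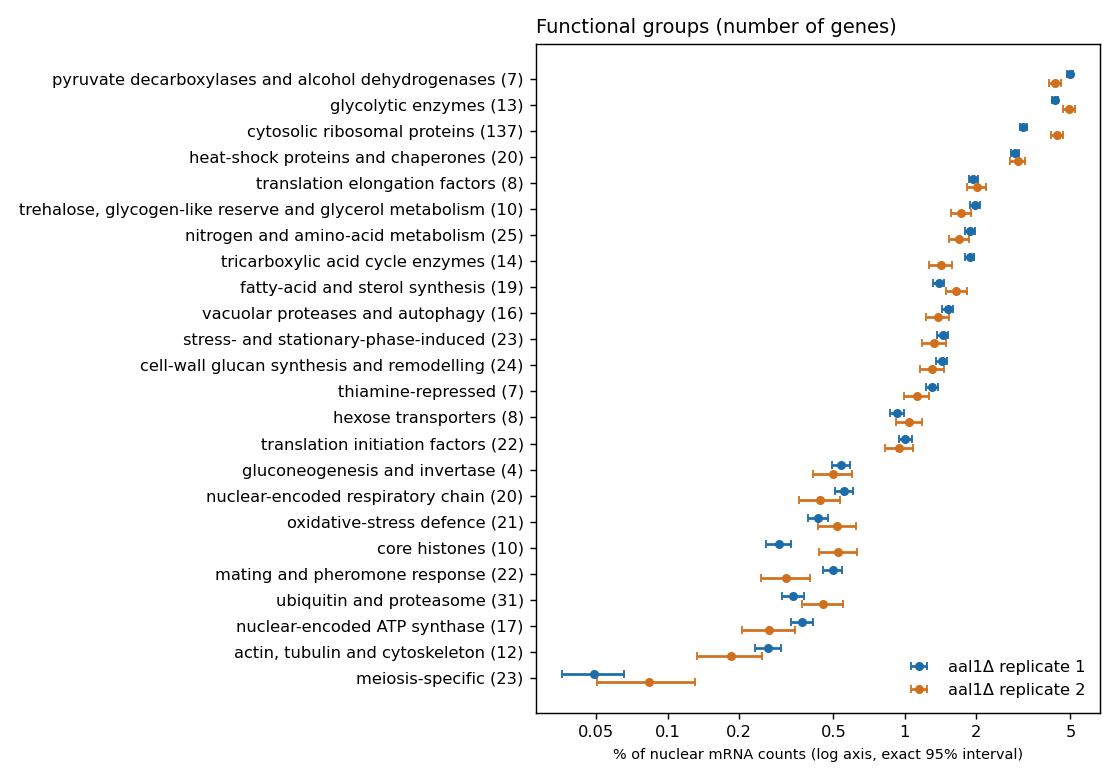
Percent of nuclear mRNA counts (log axis) held by 24 functional groups in *aal1∆* replicate 1 (blue) and replicate 2 (orange), with exact 95% intervals and the number of genes of each group in brackets. Fermentation, glycolysis, ribosomal proteins and chaperones lead in both libraries. The intervals overlap between the libraries in 17 groups and do not in 7, which are ribosomal proteins, glycolysis, fermentation, the tricarboxylic acid cycle, core histones, fatty-acid and sterol synthesis, and mating.

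Agreement in level between both libraries was closer for the most counted mRNAs than for the rest. Of the 10 highest mRNAs of each library 7 were shared, of the 20 highest 17, of the 50 highest 37 and of the 200 highest 149. Across the 1917 mRNAs with at least 10 counts over both libraries, Spearman's rho was 0.494, a description across genes, which are not independent replicates. Within the 93 mRNAs of 200 or more counts it was 0.74, within the 362 of at least 50 but under 200 counts 0.32, and within the 1462 of 10 to 49 counts 0.06, where the narrow range of counts also lowers it. The coefficient of variation between the libraries, from edgeR's common dispersion, was 20.3% for the first of these sets, 39.7% for the second and 70.2% for the third. Of the 93 mRNAs, 75 were within 1.5-fold between the libraries (80.6%), against 572 of all 1917 (29.8%).

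Replicate 2 stood somewhat apart from all other libraries of the series. Over the same 1917 mRNAs, replicate 1 had rho of 0.697 to 0.744 with the 4 wild-type and *aal1-pOE* libraries, and replicate 2 had 0.475 to 0.533 with them. Pairs among those 4 libraries had 0.643 to 0.686. Replicate 2 was the shallowest library, the others holding 82299 to 175263 counts. With replicate 1 thinned to the depth of replicate 2, rho between the *aal1∆* libraries was 0.475. Thinning leaves replicate 2 as shallow as before, so it cannot show what part depth has in the distance of replicate 2 from the others. The 1917 mRNAs were also chosen by counts summed over both *aal1∆* libraries, most of them from replicate 1. The part of culture, pull-down, depth and this choice was not tested. Among the 10 highest mRNAs, the *aal1∆* ranking by mean CPM shared 8 to 9 with each of the other 4 libraries.

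The libraries differed by more than counting error. The ratio of chi-square to its degrees of freedom was 4.33 over 1917 mRNAs, where counting error alone gives a value near 1. An exact two-sided binomial test per mRNA, with Benjamini-Hochberg adjustment over the 1917, called 288 (15%) different between the libraries. Of these, 86 (4.49%) were higher in replicate 1 and 202 (10.5%) higher in replicate 2, relative to all nuclear mRNA counts. This test compares these 2 libraries, not conditions, since both are labelled with the same genotype. It weighs them against counting error alone, and with duplicates not collapsed its p-values are too small for the spread between cultures and pull-downs, so a call says only that the 2 libraries differ. The direction was uneven by level. Of mRNAs with 200 or more counts 15 were higher in replicate 1 and 10 in replicate 2, and of those with 10 to 49 counts 38 and 153. Depth bears on this, since replicate 1 held 93940 nuclear mRNA counts and replicate 2 22731. An mRNA of few counts is therefore more readily called higher in replicate 2. *rps2602*, with 23 and 0 counts, was not called (exact binomial test, adjusted p = 0.0738). *rpl3601*, with 4 and 6, was called higher in replicate 2 (exact binomial test, adjusted p = 0.0410). Neither this split nor the 202 against 86 can be read as a trait of the mRNAs.

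**Figure D4:**
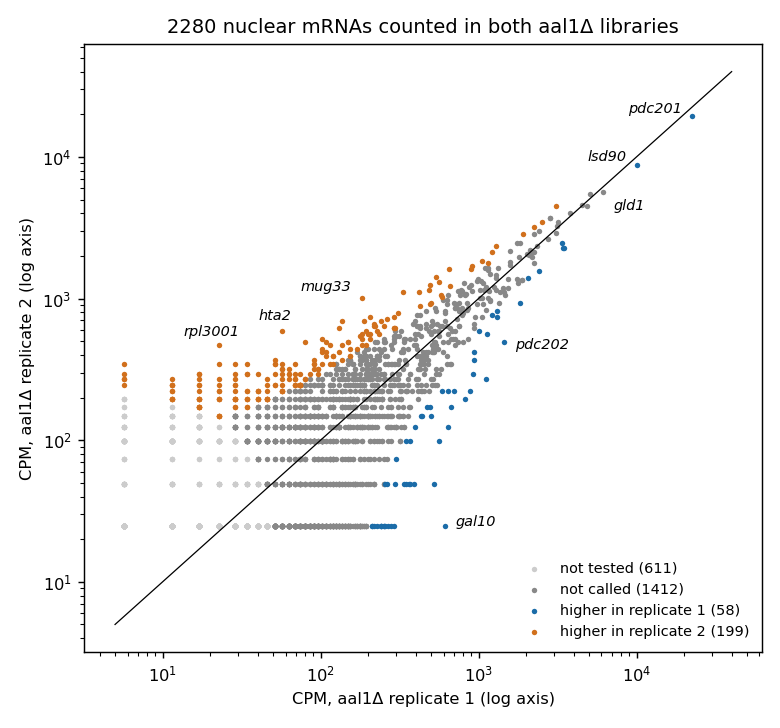
CPM in replicate 1 against CPM in replicate 2 (both log axes) for the 2280 nuclear mRNAs counted in both *aal1∆* libraries, with the line of equality. Colours mark mRNAs called higher in replicate 1 (blue) or replicate 2 (orange) by the exact binomial test, and grey marks those not called or, in light grey, with fewer than 10 counts. Most points above about 1000 CPM lie near the line, with *pdc202* off it, and points fan out below that level, with steps of 1 count in replicate 2.

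Several of the largest differences were mRNAs well counted in 1 library and nearly missing from the other. *qcr1*, a mitochondrial processing peptidase subunit of the respiratory chain, had 85 counts in replicate 1 and 0 in replicate 2. *irs1*, the isoleucine tRNA ligase, had 60 and 0, and *gal10*, an epimerase of galactose use, 107 and 1. *vps1302*, a lipid transfer protein, had 194 and 11 counts, *bgs3*, a glucan synthase, 92 and 2, and *pst1*, a subunit of histone deacetylase complexes, 112 and 5. *pdc202* had 255 and 20 counts, 1455 against 492 CPM (exact binomial test, adjusted p = 3.6e-06). The uncharacterised SPBPB7E8.01 had 154 and 9 counts, and SPAC11D3.01c 144 and 8. *pdc201* was among the 10 smallest p of this direction too, though its log2 ratio of replicate 2 over replicate 1 was only -0.28 (exact binomial test, adjusted p = 2.98e-05), because its counts are high enough to resolve a small difference.

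In the other direction the mRNAs were mostly of low count, where the depths of the libraries favour calls of this direction. *mug33* had 32 counts in replicate 1 and 41 in replicate 2, which is 183 against 1009 CPM, and had the smallest p (exact binomial test, adjusted p = 8.71e-09). *mug33* had 522 to 1151 CPM in the other 4 libraries, so that replicate 1 was the low one. *hta2*, a histone H2A, had 10 and 24 counts, and *rpl3001*, a 60S ribosomal protein, 4 and 19. *mfm2*, a precursor of the M-factor pheromone, had 0 and 14 counts, and SPAC23H3.11c 0 and 13. *rds1*, a stress-response gene, had 114 and 66 counts, *bgl2*, a glucan hydrolase, 58 and 45, and *aur1*, the inositol phosphorylceramide synthase, 24 and 28. SPAC22H10.08 had 1 and 14 counts and SPAC17C9.11c 1 and 12.

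Members that differed between the libraries were counted in each group. Of 6 tested pyruvate decarboxylase and alcohol dehydrogenase mRNAs, *pdc201* and *pdc202* were higher in replicate 1, and *pdc101* and *adh4* (6 and 9 counts) higher in replicate 2. Of 104 ribosomal protein mRNAs with at least 10 counts, 14 were higher in replicate 2 (13.5%) and 1 in replicate 1, beside 10.5% and 4.49% of all tested mRNAs, and their median log2 ratio of replicate 2 over replicate 1 was 0.57 against -0.07 over all tested. The called members included *rpp0*, *rpl8*, *rpl301* and *rps3*. Of 7 tested histone mRNAs 2 were higher in replicate 2, *hht2* with 42 and 28 counts and *hta2*. Of 13 tested tricarboxylic acid cycle mRNAs, 5 were higher in replicate 1 and 1, *cit1*, the citrate synthase, higher in replicate 2. *aco1* had 602 and 93 counts and *kgd1*, of the ketoglutarate dehydrogenase, 322 and 38. Glycolysis had 3 of 13 higher in replicate 2 and 0 in replicate 1, among them *gpd3* and *eno101*. No elongation factor and no vacuolar or autophagy gene was called among 8 and 9 tested.

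The highest mRNAs were GC-richer and less often spliced than nuclear mRNAs at large. Median GC content was 42.6% in the 50 highest per kb and 37.2% over all 5112 mRNAs, and 36.0% in the 878 at 0 in both libraries. Introns were annotated in 18% of the 50 highest per kb and in 48.3% of all. Across the 1917 mRNAs, rho between GC content and CPM per kb was 0.459 in replicate 1 and 0.336 in replicate 2. These are descriptions of the annotation set against recovery. GC content, transcript level and codon use move together in yeasts, and their parts were not tested.

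Summed by length class, shares of counts lay near shares of exon sequence. mRNAs with at least 2000 but under 4000 nt of exon held 46.9% and 45.3% of nuclear mRNA counts and 44.0% of exon sequence. Those of 4000 nt or more held 17.4% and 15.8% against 16.98% of exon sequence, and those under 1000 nt 6.93% and 8.69% against 7.01%. Those of at least 1000 but under 2000 nt held 28.7% and 30.2% against 31.96%. Both classes under 2000 nt had a higher share in replicate 2 and both longer classes a higher share in replicate 1. Counts also followed chromosome content. Chromosome I held 48.3% and 47.0% of nuclear mRNA counts with 45.6% of exon sequence, chromosome II 33.3% and 32.9% with 36.1%, and chromosome III 18.4% and 20.1% with 18.3%.

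The most recovered mRNAs did not hold longer stretches of *aal1* sequence than other mRNAs. Matches were sought over all 783 nt of *aal1*, whereas the probes were 20 nt each and covered only parts of it. Exact matches alone were scored. The values below therefore cannot show whether a probe pairs with an mRNA, which was not tested. The longest exact stretch shared with *aal1* had a median of 10 nt in the 50 highest per kb, 11 nt in the 50 highest by CPM and 11 nt over all 5112 nuclear mRNAs. Stretches over 13 nt, the limit of homology in the probe screen, were present in 3 of the 50 highest per kb (6%), in 4 of the 50 highest by CPM (8%) and in 293 of all (5.73%). Among the 50 highest the range was 9 to 15 nt. *git1*, with its 19 nt shown above, had 28 and 2 counts. *gmh3* and *ptf2* each shared 20 nt and had 2 and 0, and 1 and 0 counts. *mto1*, with 19 nt, had 17 and 1 counts. Over the 20 mRNAs with 17 nt or more, the median level was 28.6 CPM per kb, against 12.4 CPM per kb over all mRNAs, and their median exon length was 2308 nt against 1680.5 nt. Median level per kb was also higher for longer mRNAs, from 4.87 CPM per kb under 1000 nt to 27.7 CPM per kb at 4000 nt or more, where fewer mRNAs sit at 0. Among the 1917 mRNAs with at least 10 counts the order was the opposite, with rho between exon length and CPM per kb of -0.37 in replicate 1 and -0.27 in replicate 2, and there the filter admits long mRNAs at lower levels per kb. Among the 1917 mRNAs with at least 10 counts, rho between stretch length and CPM per kb was -0.16 in both libraries, and with CPM 0.07 and -0.02. The part of mRNA length in these values was not tested.

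**Figure D5:**
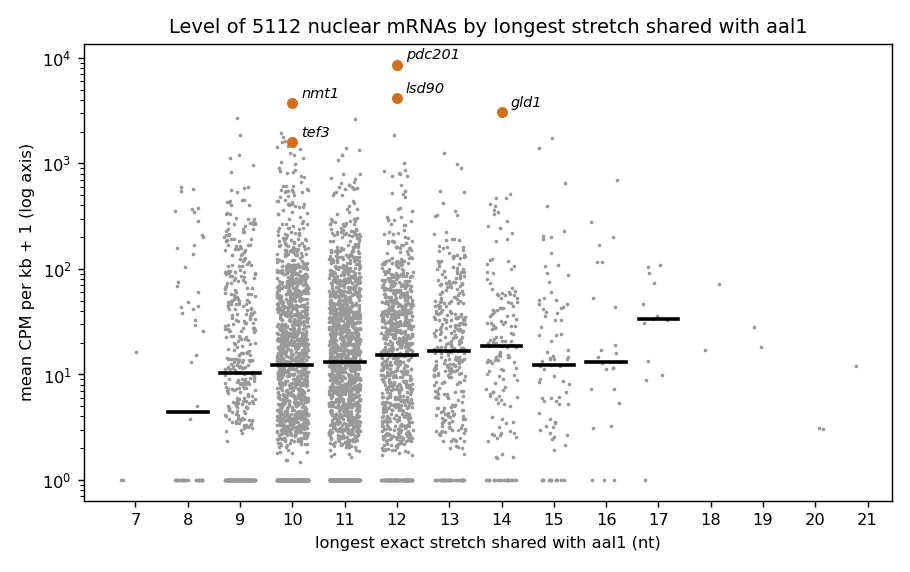
Mean CPM per kb of exon plus 1 (log axis) of 5112 nuclear mRNAs against the longest exact stretch shared with *aal1* (nt, points spread sideways). Black bars are medians for lengths with at least 5 mRNAs, and orange points the 5 mRNAs with the highest CPM, whose stretches are 10 to 14 nt. The highest levels sit at 9 to 15 nt, and the mRNAs at 18 nt and more are all below 100 CPM per kb.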

How the data were processed

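The authors sequenced the pull-down RNA on a MiSeq (75 bp pairs, strand-specific kit with molecular indices), mapped it with HISAT2 2.2.1 after trimming 8 bases, and counted reads per gene with HTSeq 0.12.3. The deposited values are raw counts. Collapsing of duplicates was not described, and the sources used here name no genome build. HISAT2 was run in its FR and HTSeq in its reverse strand mode, which name opposite strands, and each gene's annotated strand was taken as the one counted. The submitters' processing notes also name FastQC 0.11.2, SAMtools 1.14, deepTools 3.5.1 and edgeR 3.32.1.

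Here 6863 of 7001 identifiers were matched to RefSeq ASM294v3, and rRNA and mitochondrial genes without a match were classed by identifier. CPM used each library's total, and exon length was the sum of the exons of the longest annotated transcript. mRNAs with at least 10 counts over both libraries were tested by an exact binomial test with Benjamini-Hochberg adjustment at 0.05, checked on simulated counts. Log2 ratios used 0.5 added counts. Dispersion came from edgeR 4.0.16 in R 4.3.3 (TMM). Shares have exact Clopper-Pearson and CPM exact Poisson intervals. Repeats were counted over 67-nt stretches, the trimmed read length. Tables were computed in Python 3.11.15 (pandas 2.3.3, scipy 1.17.1 and numpy 2.4.6) and plotted with matplotlib 3.10.9.

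Named mRNAs were the 20 highest by mean CPM, the 10 highest per kb, up to 10 in each direction between libraries with the smallest adjusted p, 4 highest members of each list, the ribosomal protein mRNAs the study names with *rpl1902*, and the leading genes of other classes. Further members of the described groups (*pdc102*, *tpi1*, *tps1*, *ght1*, *ght6*, *rps3*, *rps2502*, *rps2602*, *rpl3601*, *adh4*) and mRNAs with long matches to *aal1* were named after their values were seen. The longest such match is not reported here. The members and the gene lists were chosen with earlier results of these data known. Alternatives were each library alone, pooled counts, other denominators, filters, scales and length measures.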

Additional observations from a re-analysis of the deposited data

How the results depend on the processing

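The nuclear mRNA share rose to 95.7% when rRNA was left out of the denominator. The share of the 10 most counted mRNAs was 12.96% when counts were summed over mRNAs with at least 10 counts, and the ribosomal protein share was 10.1% per kb of exon. Spearman's rho between the libraries was 0.593 without a filter and 0.633 at 50 or more counts. At 50 or more counts 111 of 455 mRNAs were called different, and the common dispersion was 0.124 against 0.351. The causes were not tested, except that this filter tests fewer mRNAs and better counted ones. With each library alone, the mRNA share was 53.6 to 55.9%, the share of the 10 most counted mRNAs 11.5 to 12.6%, the ribosomal protein share 3.16 to 4.39%, and the median stretch shared with *aal1* in the 50 highest per kb 10 to 11 nt. The other alternatives of these results stayed within the spread between libraries or within 1.5 times the count. No paired analysis was possible because no groups were compared. Below about 50 counts, the level of a single mRNA is known poorly, and 1 count is 24.6 CPM in replicate 2.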
